A study of Mus musculus with 4 samples.

Results

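The 10 genes described here are inflammatory and NF-kB genes of cartilage, chosen by name out of 20236 protein-coding genes found in both mouse annotations used. They comprise 2 subunits of NF-kB (Nfkb1, Rela), its inhibitor (Nfkbia), 1 receptor (Il1r1), 3 cytokines (Il6, Il1b, Tnf), 1 chemokine (Ccl2) and 2 enzymes (Ptgs2, Nos2). For each gene, open chromatin was read from ATAC-Seq peak lists in 2 windows. A promoter peak had its summit, the point of highest signal, within 1 kb of the gene start. The region of a gene ran from 50 kb before the gene body to 50 kb after it. The name of the set was not tested by these data, because open chromatin does not measure expression.

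ATAC-Seq uses the Tn5 transposase, which inserts adapters where DNA is accessible, and the study used it to look for elements that control Sox9, the transcription factor that drives cartilage formation. All 4 libraries came from primary rib chondrocytes of newborn mice, cultured for at most 2 passages with no inflammatory stimulus named in the labels or methods. Cho had 2 replicates, for which the labels give no genotype. WT and E160(delta/delta);E308(delta/delta), the homozygous deletion of both Sox9 elements (the mutant, or deletion library), had 1 library each. The deletion mice were made by CRISPR/Cas9 electroporation of embryos in 2 steps, the first in C57BL/6J embryos. They were crossed with wild-type mice to check germline transmission, and heterozygous offspring were intercrossed. The deletions were thus inherited through the germline, and no promoter or Cre limited them to cartilage. The study describes WT and mutant as littermates, and the labels do not say how many animals were pooled. A comparison of WT and the deletion is therefore a comparison of 2 libraries, and no p-value is given. In bulk cells, fewer cells with an open site and less opening per cell cannot be told apart.

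NF-kB is a family of dimeric transcription factors that wait in the cytoplasm bound to inhibitor proteins of the IkB type. Signals from the interleukin-1 and tumour necrosis factor receptors lead to phosphorylation and destruction of the inhibitor. The dimers then enter the nucleus and bind kappaB sites at genes of cytokines, chemokines and enzymes, and at the gene of their own inhibitor, which closes a feedback loop. In cartilage this pathway is known for its part in osteoarthritis, where interleukin-1 and tumour necrosis factor lower matrix synthesis and raise matrix-degrading enzymes, prostaglandin E and nitric oxide.

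The promoters of 5 genes are shown because they hold the motifs, or lack the peaks, that the results below turn on. Each run holds the 250 bases before the gene start (RefSeq, GRCm38.p6), 5′ to 3′ in the direction of transcription. Of the 10 genes, 7 were matched to the RefSeq promoter table. Capitals mark matches to the motifs described in the next paragraph.
Il6 (chr5:30012864-30013113, plus strand): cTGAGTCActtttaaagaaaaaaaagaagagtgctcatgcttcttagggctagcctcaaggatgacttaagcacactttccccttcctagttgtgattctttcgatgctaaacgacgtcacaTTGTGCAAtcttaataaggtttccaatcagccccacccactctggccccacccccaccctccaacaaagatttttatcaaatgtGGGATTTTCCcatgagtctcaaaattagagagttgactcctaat
Nfkbia (chr12:55492648-55492897, minus strand): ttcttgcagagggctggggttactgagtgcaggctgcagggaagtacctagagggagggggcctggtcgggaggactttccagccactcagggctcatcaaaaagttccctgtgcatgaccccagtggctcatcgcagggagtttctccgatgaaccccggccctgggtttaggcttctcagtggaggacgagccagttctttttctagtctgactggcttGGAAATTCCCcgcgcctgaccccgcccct
Ptgs2 (chr1:150099781-150100030, plus strand): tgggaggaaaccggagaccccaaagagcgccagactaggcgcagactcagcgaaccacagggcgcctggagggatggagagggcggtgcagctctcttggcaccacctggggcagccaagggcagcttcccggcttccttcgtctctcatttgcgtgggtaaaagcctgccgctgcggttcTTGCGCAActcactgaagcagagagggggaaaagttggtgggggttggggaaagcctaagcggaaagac
Il1b (chr2:129371140-129371389, minus strand): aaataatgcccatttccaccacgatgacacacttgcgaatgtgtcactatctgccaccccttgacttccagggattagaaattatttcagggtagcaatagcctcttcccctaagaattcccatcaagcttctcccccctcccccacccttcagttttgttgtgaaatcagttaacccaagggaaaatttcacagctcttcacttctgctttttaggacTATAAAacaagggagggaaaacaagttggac
Tnf (chr17:35202008-35202257, minus strand): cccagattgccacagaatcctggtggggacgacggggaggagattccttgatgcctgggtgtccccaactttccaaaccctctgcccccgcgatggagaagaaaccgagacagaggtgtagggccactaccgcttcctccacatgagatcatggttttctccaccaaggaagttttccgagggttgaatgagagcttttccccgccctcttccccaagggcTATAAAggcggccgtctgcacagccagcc

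The motifs were searched on both strands of these 250 bases. They were the kappaB motif of NF-kB, TGANTCA for AP-1, TGACGTCA for the cAMP response element, TTNNGCAA for C/EBP factors, and TATAAA. Among 32851 promoters of the table, 7.25% held kappaB, 6.75% AP-1, 1.55% the cAMP response element, 9.56% C/EBP and 12.4% TATAAA. The Il6 promoter held kappaB at bases -44 to -35 from the gene start, C/EBP at -128 to -121 and AP-1 at -249 to -243. The Nfkbia promoter held kappaB on the opposite strand at -29 to -20, and Ptgs2 held C/EBP at -69 to -62. All of these matches lay inside the second Cho replicate promoter peak of the gene, the 1 list in the same build as the sequences. Il1b and Tnf each held only TATAAA, at -31 to -26 and at -29 to -24. The Rela window held none of the motifs, and the first Il1r1 start held C/EBP at -133 to -126. A match gives letters in a window and is not evidence that a factor was bound.

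The libraries differed in depth and in how peaks were scored. Peak lists held 76242 intervals in the first Cho replicate, 148330 in the second Cho replicate, 90971 in WT and 169591 in the mutant. Depth estimated from the background ranged from 4622 tags per Mb in WT to 20816 in the second Cho replicate. In the first Cho replicate, 99.997% of peaks were scored against a single background value, whereas the other lists used local backgrounds for most peaks. The second Cho replicate was in GRCm38 (mm10) and the others in NCBIM37 (mm9). At the deleted elements, E160 had 2 peaks in WT (highest fold enrichment 13.4) and 0 in the mutant, while E308 had 2 in WT (highest 15.4) and 1 of 3.07 in the mutant. Of 14 chondrocyte marker promoters, 6 had a peak in the first Cho replicate and 12 in each of the other libraries; Sox9 and Col2a1 had one in all 4, Acan lacked one in the first Cho replicate, and Comp lacked one in every library. Among cells that can make these cytokines, promoters of 5 pan-leukocyte and lymphocyte markers, Ptprc among them, had no peak in any library. Of 10 myeloid markers, 0 had a peak in the first Cho replicate, 3 in the second Cho replicate, 1 in WT and 3 in the mutant. Lyz2 had a fold enrichment of 11.8 in the second Cho replicate, 11.03 in WT and 16.6 in the mutant. Spi1 and Cd68 had a peak in the second Cho replicate and the mutant only. The other 7, Csf1r, Itgam and Adgre1 among them, had none in any library. Of 6 endothelial markers, 3, 2, 3 and 3 had a peak, of 6 fibroblast and bone markers 3, 6, 5 and 5, and of 6 skeletal muscle markers 0, 2, 1 and 3, in the same order of libraries. The part of such cells in the results below was not tested.

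Chromatin at most of the 10 gene starts was accessible in these rib chondrocytes, and the starts of Il1b and Tnf had no peak in any library. A promoter peak was present at 7 of the 10 genes in the first Cho replicate, against 58.6% of all genes in that library. The second Cho replicate had a peak at 8 of 10 (67.2% of all genes), WT at 8 of 10 (62.2%) and the mutant at 8 of 10 (67.8%). The mean of the Cho replicates was 7.5 ± 0.707 (SD, n = 2). Each count was 1 to 2 genes of 10 above the share over all genes. In all, 7 of the genes had a promoter peak in all 4 libraries, as did 54.7% of all genes. Nos2 had one in 3 libraries. Il1b and Tnf had none in any, as was the case for 28.1% of all genes.

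**Figure D1:**
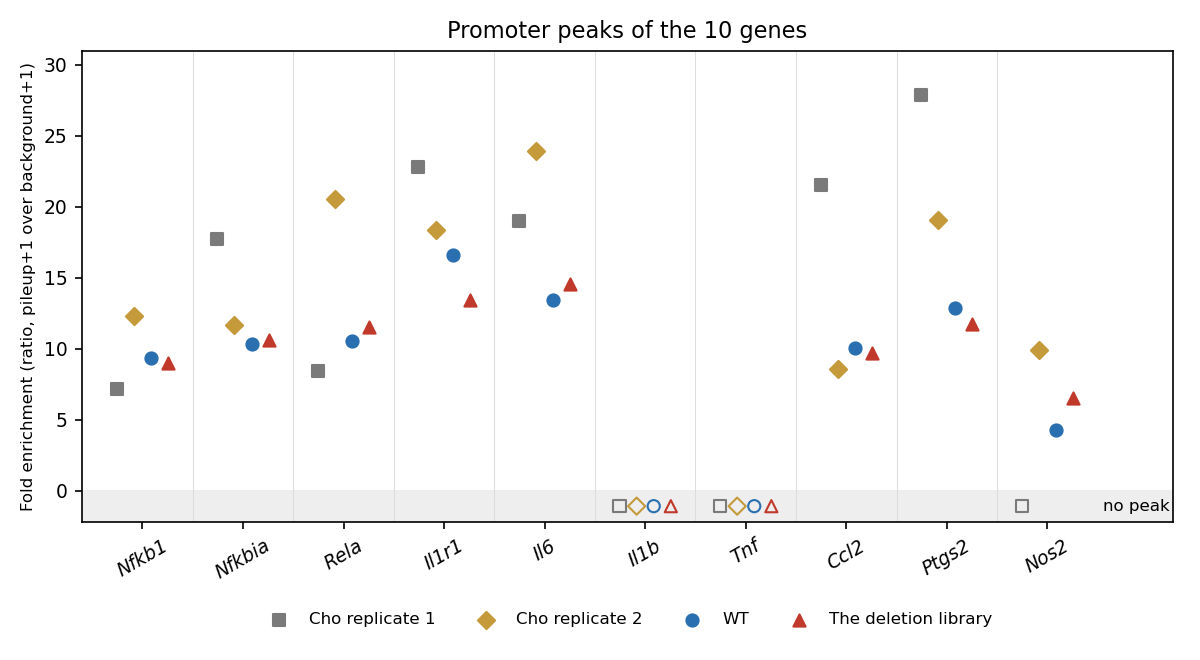
Fold enrichment of the promoter peak (vertical axis, summit pileup over background after adding 1 to each) for the 10 genes (horizontal axis) in the first Cho replicate, the second Cho replicate, WT and the mutant; open symbols in the grey band mark genes with no promoter peak. The 4 symbols of Il1b and of Tnf all lie in the band, and the WT and deletion symbols lie close together at the other genes, the largest ratio being at Nos2 (4.25 and 6.53).

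Nfkb1 (chr3:135247619-135354511, minus strand; this and the gene positions that follow are in NCBIM37) encodes p105, the precursor of the p50 subunit. Its promoter peak reached 7.18 and 12.3 in the first and second Cho libraries, 9.32 in WT and 8.98 in mutant cells. Fold enrichments depend on each library's depth and background, so a percentile was also taken among all promoter peaks of the same library. By that rank Nfkb1 was the steadiest of the genes, at percentiles of 23.8, 28.0, 26.2 and 25.4. WT had 3 summits within 1 kb of the start, the strongest 108 bases downstream, and the mutant had 4, the strongest 105 bases downstream. Rela (chr19:5637483-5648130, plus strand) encodes p65, the subunit that carries the activation domain. In the order just used, its promoter had values of 8.45, 20.6, 10.6 and 11.5, and its rank ran from 30.9 in the first Cho replicate to 61.0 in the second Cho replicate. Both subunit promoters were thus open in every list, in the lower or middle part of the range.

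Nfkbia (chr12:56590398-56593634, minus strand) encodes IkBalpha, the inhibitor that NF-kB itself induces. The fold enrichment at its promoter reached 17.7 and 11.7 in the first and second Cho libraries, 10.4 in WT and 10.6 in mutant cells. The first Cho replicate stood apart by rank of fold enrichment, at percentile 69.2, while the other 3 lay between 25.7 and 36.3. Ranked by summit pileup over the library's own background, in place of local background, the 4 libraries stood at 69.2, 53.9, 60.4 and 64.5. WT and the mutant each had a pair of summits, 111 and 613 bases downstream of the start in WT and 87 and 613 in the mutant. By distance from the start, the kappaB letters printed above lie just upstream of the first of these summits.

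Il1r1 (chr1:40281925-40373043, plus strand), the signalling receptor for interleukin-1, ranked above the median promoter peak in every library. Its fold enrichment reached 22.8 and 18.4 in the first and second Cho libraries, 16.6 in WT and 13.5 in mutant cells. The corresponding percentiles were 80.3, 52.3, 77.7 and 57.4. The summit lay 43, 30, 29 and 28 bases before the gene start. A further annotated start of the gene, 41506 bases downstream, also had a peak in each library, with fold enrichments of 7.18, 13.2, 11.3 and 10.1. This second start held kappaB letters in its upstream window, outside the second Cho replicate peak.

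Il6 (chr5:30339701-30346508, plus strand), a cytokine that chondrocytes release under interleukin-1, had an open promoter in all 4 libraries. Its fold enrichment reached 19.0 and 23.9 in the first and second Cho libraries, 13.4 in WT and 14.6 in mutant cells. All 4 values lay above the median of promoter peaks of their library, at percentiles of 72.5, 72.8, 55.3 and 66.0. By pileup over library background the percentiles were 72.5, 52.1, 41.9 and 49.3, below the median in WT and the mutant. WT had 1 summit 192 bases upstream of the start (10.9) and another 119 bases downstream (13.4). In the mutant the summits lay 249 bases upstream and 109 downstream, with nearly equal fold enrichments of 14.6. The annotated Il6 start differs between the builds, so the motif positions above were not set against these summits.

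Il1b (chr2:129190306-129196875, minus strand) and Tnf (chr17:35336326-35338952, minus strand), cytokines that activate NF-kB through their receptors, had no promoter peak. The nearest summit to the Il1b start lay upstream in each library, at -37479 bases in the first Cho replicate, -18470 in the second Cho replicate, -22594 in WT and -18435 in the mutant. At Tnf the nearest summit lay 1319 bases downstream in the first Cho replicate (fold enrichment 4.22). It lay 6176 bases downstream in the second Cho replicate and 6161 in WT. In the mutant it lay upstream, at -3419, 75 bases from the start of Lta, the lymphotoxin alpha gene. A start with no called peak had too little signal to be called at that library's depth, which is not a measure of closed chromatin. The smallest summit pileup that gave a peak was 6 tags in the first Cho replicate, 8 in the second Cho replicate and 4 in WT and the mutant.

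Ccl2 (chr11:81849073-81850955, plus strand), the chemokine that draws monocytes, had a promoter peak in every list but ranked differently among them by fold enrichment. The fold enrichment reached 21.5 and 8.55 in the first and second Cho libraries, 10.03 in WT and 9.70 in mutant cells. The percentile was 78.0 in the first Cho replicate, against 15.3, 30.5 and 29.8 in the others. By pileup over library background the percentiles lay closer together, at 78.0, 38.3, 53.6 and 51.1. A second summit further upstream, at -901 and -880, was called in both Cho replicates and in neither of the other libraries.

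Ptgs2 (chr1:151947254-151955140, plus strand) encodes cyclooxygenase-2, which makes the precursor of prostaglandin E2. Its promoter gave the highest fold enrichment of the 10 genes in the first Cho replicate, 27.9, and had 19.1 in the second Cho replicate, 12.9 in WT and 11.7 in the mutant. By rank it stood at 87.6, 55.1, 51.3 and 44.3. The summit lay between 145 and 217 bases upstream of Ptgs2 in the 4 libraries. In WT and the mutant it was nearer to the start of the neighbouring transcript 7530420F21Rik than to that of Ptgs2, so the peak is shared by both starts.

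Nos2 (chr11:78734289-78773756, plus strand) encodes inducible nitric oxide synthase and had the weakest promoter peak of those called in WT and the mutant. No peak was called in the first Cho replicate, where the nearest summit lay at -33521 bases. The fold enrichment was 9.94 in the second Cho replicate, 4.25 in WT and 6.53 in the mutant. The WT peak rested on a pileup of 6 tags and ranked at the 1.04th percentile. In WT the call was lost at a −log10 q-value above 5.

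**Figure D2:**
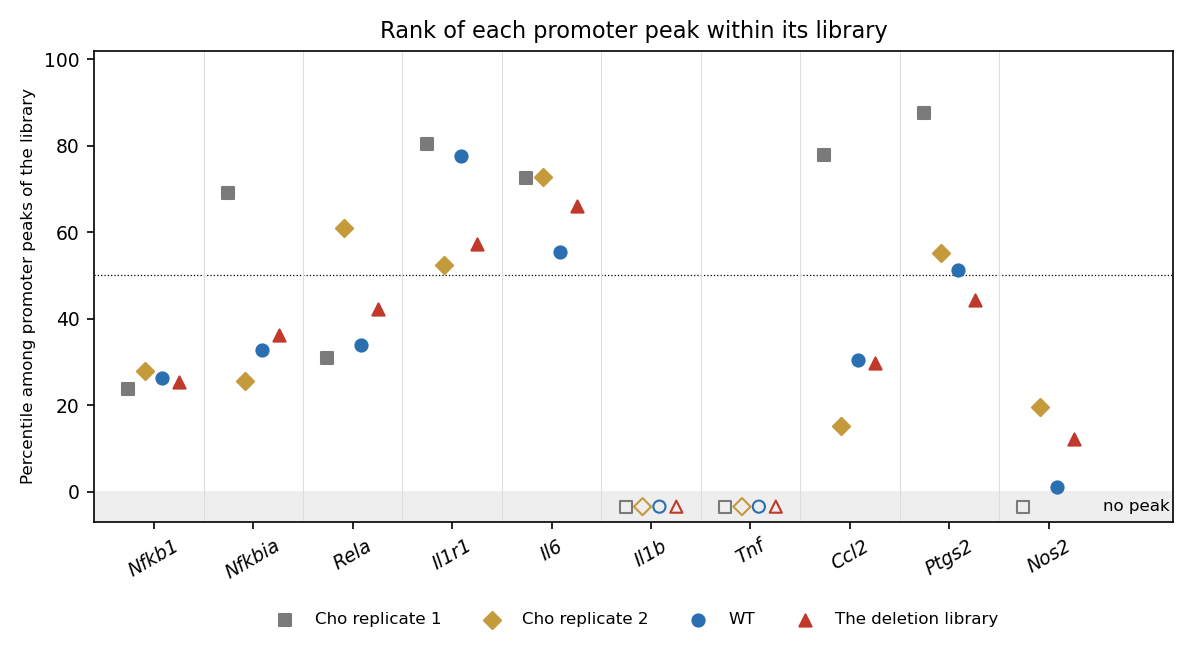
Percentile of each promoter peak's fold enrichment among all promoter peaks of the same library (vertical axis) for the 10 genes (horizontal axis), with the dotted line at the median; open symbols in the grey band mark genes with no promoter peak. Il6 and Il1r1 lie above the line in all 4 libraries, Nfkb1 stays between 23.8 and 28.0, and the first Cho replicate stands above the other libraries at Nfkbia, Ccl2 and Ptgs2.

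Over the 7 genes with a promoter peak in all 4 libraries, the median percentile reached 72.5 and 52.3 in the first and second Cho libraries, 34.02 in WT and 42.3 in mutant cells. These ranks use fold enrichment, and ranks by pileup over library background differed, as given above for Nfkbia, Il6 and Ccl2. The genes did not move together: the first Cho replicate gave the highest percentile of the 4 libraries at Nfkbia, Il1r1, Ccl2 and Ptgs2, and the lowest at Nfkb1 and Rela. It is also the library with peaks at fewest chondrocyte marker promoters (6 of 14) and with a single background value for nearly all peaks. The part of either in these differences was not tested.

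The base composition of the promoters was compared with the calls, because promoters rich in CpG are open in most cell types. The CpG ratio, the observed over the expected number of CpG in the RefSeq promoter window, was 0.202 for Il1b, 0.214 for Il6, 0.274 for Il1r1, 0.436 for Tnf, 0.539 for Nfkbia, 0.617 for Ptgs2 and 0.813 for Rela. That window is not the same as the 250 bases printed above. Il6 and Il1r1 thus share the class from 0.2 to 0.4 with Il1b. In that class of 2544 genes, 27.3% had a promoter peak in the first Cho replicate, 38.7% in the second Cho replicate, 32.0% in WT and 41.3% in the mutant. In the class of Tnf and Nfkbia, from 0.4 to 0.6, the shares were 62.6%, 76.1%, 66.8% and 75.3% of 2051 genes. Il1b, with the lowest of these ratios, and Tnf each shared a class with genes that had a peak. The part of base composition in the calls was not tested. Among the 8019 genes below a ratio of 0.6, 23.8% had a promoter peak in all 4 libraries, and Il6, Il1r1 and Nfkbia were among them.

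**Figure D3:**
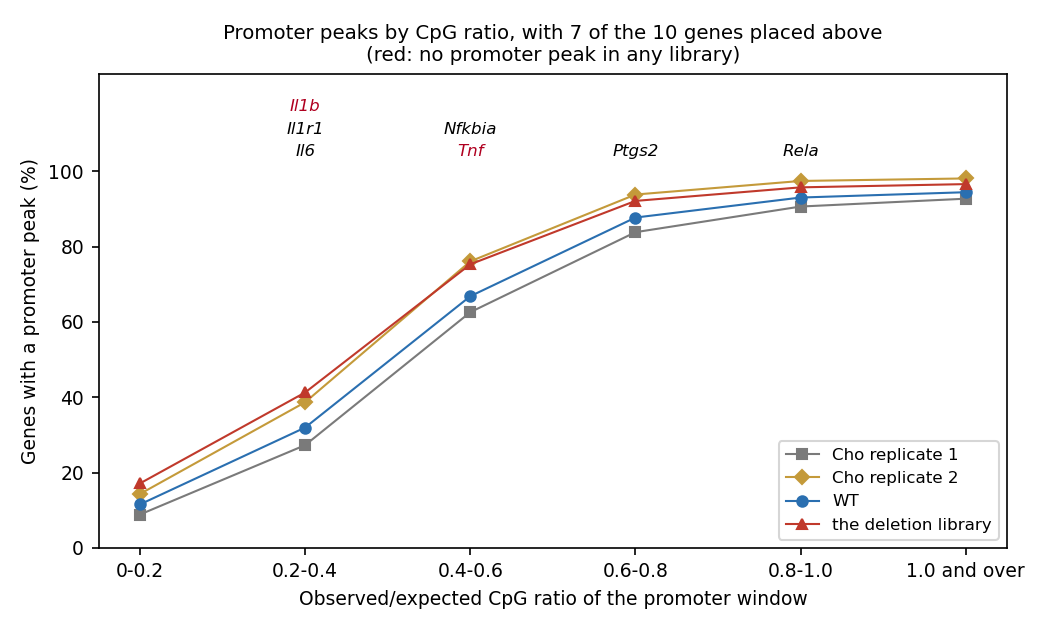
Share of genes with a promoter peak (vertical axis, percent) in classes of the observed over expected CpG ratio of the promoter window (horizontal axis), for each library, with 7 of the 10 genes named above the class they fall in. The shares rise with the CpG ratio in every library, and Il6, Il1r1 and Nfkbia, with a peak, sit in the same classes as Il1b and Tnf, in red, without one.

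WT and the mutant were compared at the 8 promoters called in both, which asks whether loss of the Sox9 elements went with a change at these genes. No promoter changed by 2-fold or more. The log2 ratio of fold enrichment, deletion to WT, was -0.30 at Il1r1, -0.14 at Ptgs2, -0.05 at Nfkb1 and -0.05 at Ccl2. It was 0.04 at Nfkbia, 0.12 at Rela, 0.12 at Il6 and 0.62 at Nos2. The median was -0.0049, against 0.01 over the 12536 promoters called in both libraries. Past 2-fold in either direction were 0 of the 8, against 1.11% of all. Over all promoters, 5% of ratios lay below -0.34 and 5% above 0.66, and all 8 ratios of these genes lay between those values.

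Summit pileups were also divided by each library's background, which avoids the local background. That ratio, deletion to WT, was 0.768 at Il1r1 (95% exact binomial interval 0.488 to 1.22), 0.830 at Nfkbia (0.525 to 1.33), 0.908 at Il6 (0.542 to 1.55, from summits 368 bases apart in non-overlapping peaks) and 1.25 at Nos2 (0.442 to 4.002). The median over all promoters was 0.835. For all 8 genes the interval, which covers counting error only, held 1. With pileups of 6 to 36 tags in WT and 13 to 49 in the mutant, changes of the size of these intervals were not detectable. The 2 members on chromosome 11, which carries E160 and E308, lay 30.5 Mb (Ccl2) and 33.6 Mb (Nos2) from the nearer element.

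Beyond the promoters, the regions of the 10 genes held 109 peaks in the first Cho replicate, 158 in the second Cho replicate, 98 in WT and 166 in the mutant. The deletion library had 1.69 times the peaks of WT in these regions and 1.86 times over the genome. Every gene had more peaks in the mutant, from 1.17 times at Rela to 2.2 times at Ptgs2. With equal numbers of the strongest peaks from both lists, the ratio was 0.939. Of the 98 WT peaks, 92 (93.9%, exact binomial interval 87.1 to 97.7) overlapped a deletion peak, against 95.9% of all WT peaks. Of the 166 deletion peaks, 85 (51.2%, 43.3 to 59.0) overlapped a WT peak, against 49.4% of all. The 81 deletion peaks without a WT peak were weaker, with a median fold enrichment of 4.92 against 8.78 for the shared ones, and 56 of the 81 had a peak at the site in at least 1 Cho replicate. No such median or share over the genome is given, so these values do not set the regions apart.

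Peak density also differed among the genes. Per 100 kb in WT, Tnf had 11.7 peaks, Rela 10.8, Ccl2 10.8 and Nfkbia 9.69. Il6 had 3.75 and Il1b 3.75, against a median of 5.84 over all genes. The Tnf and Rela regions are gene-rich, and 7 of 12 and 6 of 12 WT peaks there lay within 1 kb of the start of another gene, such as Nfkbil1 and Ddx39b near Tnf and Kat5 and Map3k11 near Rela. Il6 and Il1b were at or below the 35.6th percentile of density in every library. The Ptgs2 region had 16 peaks in the first Cho replicate (98.8th percentile) but 9 in the second Cho replicate, 5 in WT and 11 in the mutant, at the 45.6th, 39.8th and 48.4th percentile. Across the 10 regions, 66 of the 98 WT peaks (67.3%) lay more than 1 kb from the 5′ end of every annotated gene. Over the genome, 71706 of 90971 WT peaks did, a larger share. Further transcript starts within a gene were not counted. The peaks at the second Il1r1 start and near an internal Nfkb1 start are therefore among the 66. By position of the summit, 33 of the 98 lay in introns, 12 in exons and 53 between genes. At 58 of the 98 a peak was present in all 4 libraries. No share over all WT peaks is given beside this count or the split by position, so neither sets these regions apart.

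**Figure D4:**
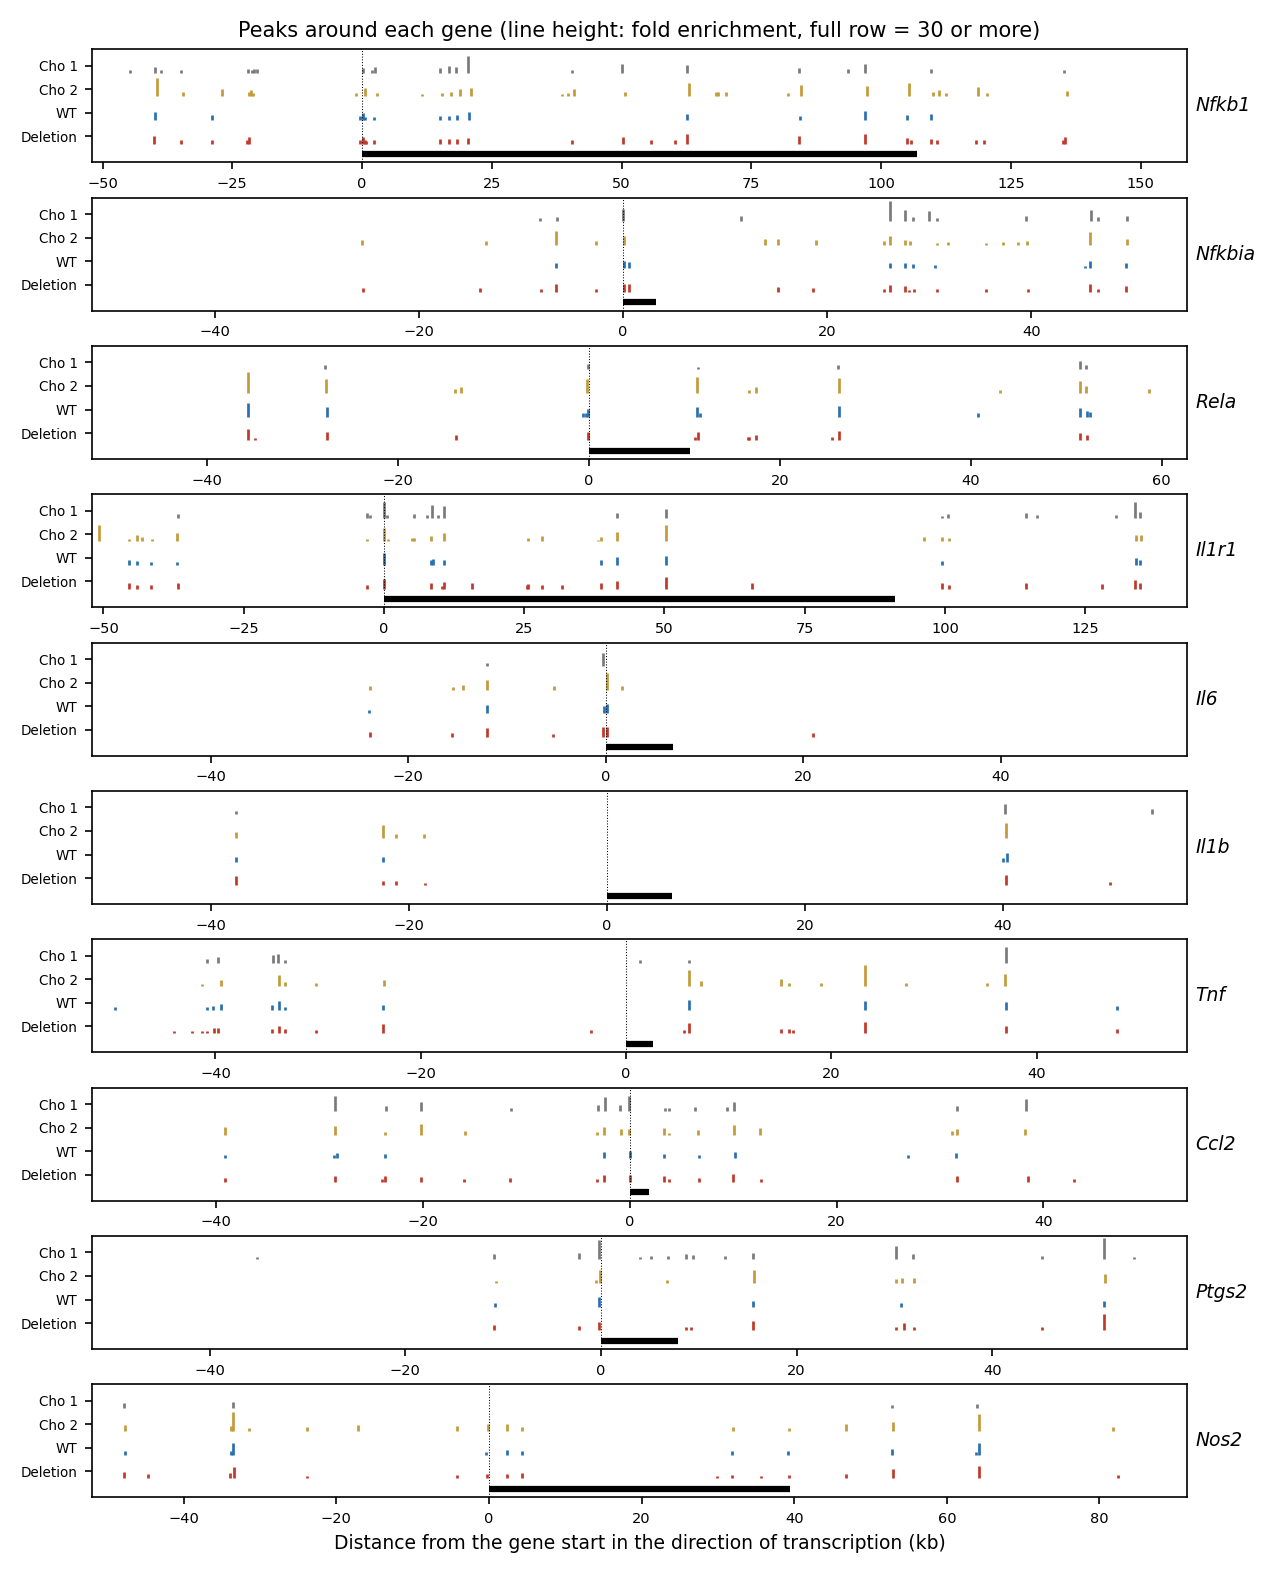
Peaks in the region of each gene, by distance of the summit from the gene start in kb (horizontal axis, positive in the direction of transcription), in 4 rows per gene for the first Cho replicate, the second Cho replicate, WT and the mutant. Line height is fold enrichment with a full row at 30 or more, the black bar is the gene body, and the second Cho replicate is placed by the GRCm38 gene start. Il1b has no line near its start in any row. A peak was present in all 4 libraries at 10 of 15 WT peaks of Nfkb1, 9 of 14 of Il1r1 and 6 of 10 of Nfkbia, with no share over all WT peaks given.

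For each gene the distal peak of highest fold enrichment was followed through the libraries. Distal means over 1 kb from the 5′ end of every annotated gene in NCBIM37, with further transcript starts within a gene not counted. WT and the mutant named the same site at 6 of the 10 genes, the exceptions being Nfkb1, Nfkbia, Tnf and Ptgs2. Within Il1r1, an intronic site 50.3 kb downstream of the start (chr1:40332045-40332497, NCBIM37) had fold enrichments of 13.1 in the first Cho replicate, 23.7 in the second Cho replicate, 12.8 in WT and 15.8 in the mutant. Upstream of Il6, a site at -12.0 kb (chr5:30327574-30327738) had 5.07, 13.6, 11.3 and 12.5. Upstream of Ccl2, a site at -2.45 kb (chr11:81846511-81846679) had 20.3, 11.5, 9.18 and 9.34. The Rela site lay 11.4 kb downstream of the start and past the end of the gene (chr19:5648790-5649010), with 3.80, 22.5, 13.6 and 12.2. All of these sites were called in the 4 libraries, and the intervals of their pileup ratios, mutant to WT, all held 1.

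Il1b and Nos2, with an absent and a weak promoter peak, each had a strong distal site. The Il1b site lay 40.4 kb downstream of the start, between genes (chr2:129156407-129156697), with fold enrichments of 15.2 in the first Cho replicate, 21.1 in the second Cho replicate, 12.4 in WT and 13.9 in the mutant. The Nos2 site lay upstream, at -33.6 kb (chr11:78700613-78700910), with 8.87, 27.4, 17.5 and 16.4. In WT the Nos2 site was at the 96.6th percentile of all peaks, whereas the Nos2 promoter peak was at the 1.04th percentile of promoter peaks. At Tnf the strongest distal site in WT lay 6.16 kb downstream, in an exon of Ltb, the lymphotoxin beta gene, with 4.22, 23.0, 14.7 and 15.1. In the mutant the strongest lay 23.2 kb downstream (16.1, against 12.3 in WT). Which gene any of these sites acts on is not measured by ATAC-Seq.

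Within Nfkb1 the strongest WT site was intronic, 96.8 kb downstream of the start (chr3:135257265-135257842), with 13.1, 15.0, 13.3 and 13.3 in the same order of libraries. It lay 266 bases before an annotated internal transcript start of Nfkb1. In the mutant the strongest was an intronic site 62.7 kb downstream, with 13.8 against 7.92 in WT. Near Nfkbia, a site 45.7 kb downstream of the start had 16.05, 18.0, 10.6 and 11.3, and a site at -6.56 kb had 5.49, 19.8, 7.89 and 11.3. At Nfkb1 and Nfkbia the intervals of the pileup ratio at these sites held 1, from 0.794 to 3.58 at 62.7 kb in Nfkb1 and from 0.554 to 2.53 at -6.56 kb near Nfkbia.

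Ptgs2 had the distal site with the highest fold enrichment of all 166 deletion peaks, 51.4 kb downstream of the start and between genes (chr1:151998592-151998858). Its fold enrichment reached 38.0 and 12.5 in the first and second Cho libraries, 7.35 in WT and 22.3 in mutant cells. The summit pileup was 9 tags in WT and 37 in the mutant. Over library background, the ratio of deletion to WT was 2.37 (interval 1.12 to 5.58, counting error only). The site was picked for its high value in the mutant, which favours a ratio above 1. The interval does not allow for that choice. Fold enrichment in the first Cho replicate was also above that in the second, by about as large a ratio as the mutant was above WT. In WT a different distal site was strongest, 15.5 kb downstream, with 9.71, 18.6, 8.35 and 13.2.

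The kappaB motif was looked for at each distal summit and in the 50 bases on either side of it. In WT 5 of the 66 distal summits in these regions held it (7.58%), against 1.97% of 71706 distal summits over the genome. In the mutant 8 of 131 did (6.11%), against 1.82% of 144600. These counts are small and describe letters, not binding. They are not independent, because the same letters near Il1r1 (134.8 kb), Nfkbia (49.3 kb) and Il1b (40.4 kb in WT) count in both lists. For AP-1 the shares were 18.2% against 16.4% in WT and 23.7% against 19.2% in the mutant. For C/EBP they were 6.06% against 5.43% in WT and 3.82% against 5.37% in the mutant. The 4 sites with kappaB letters and fold enrichments above 11 are shown, plus strand of NCBIM37, with kappaB in capitals, because they are the strongest such sites, near Nos2, Il1b, Rela and Nfkbia.
Nos2 in WT, at -33.6 kb (chr11:78700651-78700751): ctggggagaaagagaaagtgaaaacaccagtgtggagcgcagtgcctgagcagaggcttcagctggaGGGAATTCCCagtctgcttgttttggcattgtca
Il1b in WT, 40.4 kb downstream (chr2:129156470-129156570): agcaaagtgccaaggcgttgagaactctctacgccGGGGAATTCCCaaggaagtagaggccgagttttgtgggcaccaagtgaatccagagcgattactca
Rela in the mutant, 11.4 kb downstream (chr19:5648868-5648968): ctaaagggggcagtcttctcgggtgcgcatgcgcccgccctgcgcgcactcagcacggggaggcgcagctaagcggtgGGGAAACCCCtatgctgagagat
Nfkbia in the mutant, 45.8 kb downstream (chr12:56547818-56547918): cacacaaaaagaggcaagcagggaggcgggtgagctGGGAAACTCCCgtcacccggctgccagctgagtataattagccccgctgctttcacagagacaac
The Il1b site held kappaB letters around both its WT and its mutant summit. All 4 sites shown were called in every library, but the summit differed between WT and the mutant. Around the mutant summit of the Nos2 site, and around the WT summits of the Rela and Nfkbia sites, the window held no kappaB match.

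Fold enrichments were then compared at the 92 WT peaks in these regions that overlapped a deletion peak. The median log2 ratio, deletion to WT, was 0.15, against 0.28 over all 87274 shared peaks, and 66 of the 92 ratios were above 0 (71.7%, against 75.2% of all). Past 2-fold were 8 of the 92 (8.70%), against 7.86% of all shared peaks, and all 8 were higher in the mutant, as were 6791 of 6857 over the genome. They lay near Rela, Il1b and Ptgs2 (2 each), Nfkbia and Il1r1 (1 each). In 6 of the 8 the WT summit lay over 100 bases from the deletion summit. In those of the 6 near Nfkbia, Rela and Il1b, a stronger WT peak overlapped the same, wider deletion peak. In the others the WT peak was the only one there. These lay at -36.9 kb from Il1r1 (3.68 in WT, 8.40 in the mutant) and 30.7 kb from Ptgs2 (4.41 and 10.1). The intervals of their pileup ratios held 1 (0.633 to 8.41 and 0.790 to 7.50). With summits at most 100 bases apart, 2 of 75 pairs passed 2-fold (2.67%), against 6.03% of 77289, and the median was 0.11 against 0.26. Those 2 pairs were the Ptgs2 site at 51.4 kb and a site at -37.5 kb from Il1b, with 6.62 in WT and 13.5 in the mutant. The Il1b pileups were 8 and 21 tags, and the interval of their ratio held 1 (0.643 to 3.95).

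**Figure D5:**
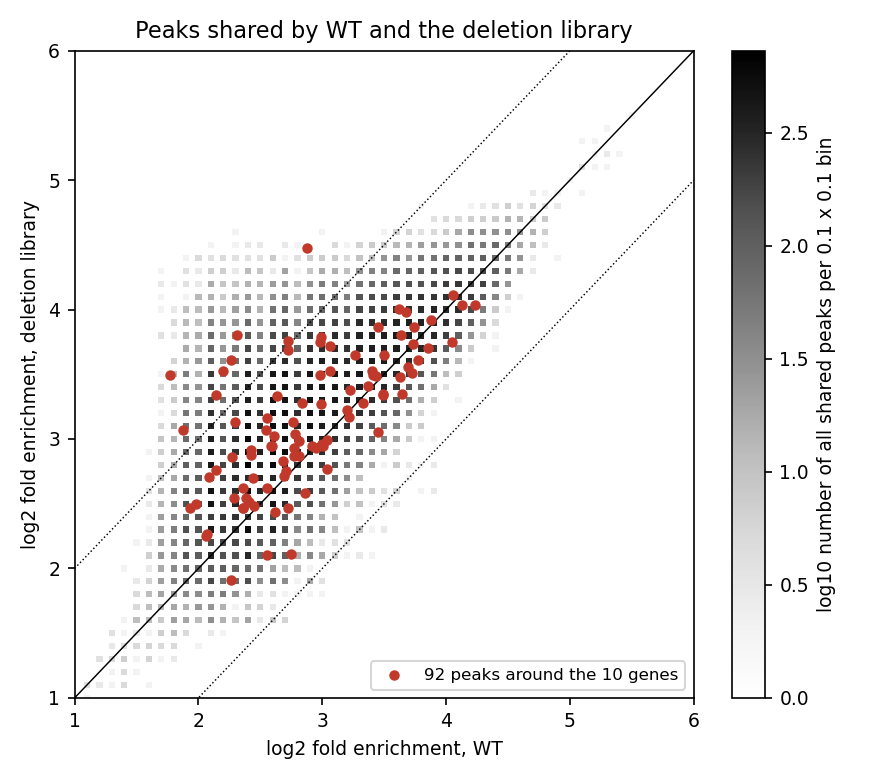
Log2 fold enrichment in WT (horizontal axis) and in the mutant (vertical axis) for peaks shared by both, in grey for all shared peaks by number per bin and in red for the 92 around the 10 genes, with lines at equality (solid) and at 2-fold (dotted). The red points follow the grey cloud, 8 lie above the upper dotted line and none below the lower one; the highest is the Ptgs2 site at 51.4 kb.

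A wider list of 56 pathway genes was read in the same way. Of these, 42 had a promoter peak in the first Cho replicate (75.0%), 49 in the second Cho replicate (87.5%), 41 in WT (73.2%) and 46 in the mutant (82.1%), against shares over all genes of 58.6%, 67.2%, 62.2% and 67.8%. The further NF-kB subunits Nfkb2, Rel and Relb and all 12 kinases and adaptors, such as Ikbkg, Traf6 and Myd88, had one in every library. Of 7 inhibitors and regulators, 6, 7, 5 and 5 had one, with Tnfaip3, which encodes the deubiquitinating inhibitor A20, at 15.2 in WT and 18.3 in the mutant. Of 11 receptors, 6, 10, 7 and 8 had one, and Ccr2, the receptor of the Ccl2 product, had none. Of 23 ligands, enzymes and other targets, 15, 17, 14 and 18 had one, and Il1a, Ccl5, Ccl20 and Nos3 had none in any library.

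At the 41 promoters of the wider list called in both libraries, the median log2 ratio of deletion to WT was 0.11, against 0.01 over all 12536 promoters called in both. Past 2-fold was 1 of the 41, against 1.11% of all. It was Hif1a, which encodes a hypoxia-inducible factor subunit, at 9.25 in WT and 20.4 in the mutant. Hif1a had 26.6 in the second Cho replicate and no promoter peak in the first Cho replicate. Mmp13, the collagenase of cartilage, had 4.65, 10.1, 5.88 and 9.22 in the 4 libraries, and Adamts5, an aggrecanase, had 9.71, 5.797, 4.43 and 5.12.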

How the data were processed

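Peak lists of 4 ATAC-Seq libraries were used. Per the submitters' processing notes, reads were cleaned with fastp, aligned with Bowtie2 2.4.4, filtered with SAMtools 1.9 and Picard 2.20.7, and peaks were called with MACS2 2.2.4 at a q-value of 0.05 (from the study's methods, which name another Picard version). Signal tracks were not analysed here. Fold enrichment, as deposited, is the summit's tag pileup over its background, a ratio to which MACS2 adds 1 above and below the line. The −log10 p-value and −log10 q-value of each summit were also deposited, as was a whole-number score equal to the latter times 10.

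The 10 genes and the wider lists were chosen with earlier results of these data known. From Cho replicate 1, 11573 further summits were dropped, 1 entry per interval being kept. Cho replicate 2 fits GRCm38: 67.2% of promoters held a peak with its positions, against 17.1% with NCBIM37. Gene positions came from GENCODE (NCBIM37) and RefSeq (GRCm38.p6), and no coordinate was converted. For distal sites, Cho replicate 2 was matched by distance from the gene start within 150 bp, after a shift per gene chosen after seeing the data. Pileups were solved from fold enrichment and p-value under a Poisson model and tested on simulated data. Named by rule were the 10 genes, the strongest distal peak of each in WT and in the deletion, and the wider lists. Neighbouring genes, the genes picked out of the wider lists, and the sequences shown, were chosen after their values were seen. Overlaps of 1 bp or more used bedtools 2.31.1; intervals are 95% Clopper-Pearson. Python 3.11.15, numpy 2.4.6, pandas 2.3.3, scipy 1.17.1 and matplotlib 3.10.9 were used.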

Additional observations from a re-analysis of the deposited data

How the results depend on the processing

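No paired analysis was possible because each genotype was sequenced as 1 library, which leaves a single pair of libraries and no spread between pairs. The counts of promoters with a peak stayed within 1.5 times under every alternative run, and the Cho mean ran from 7 to 8 when either replicate was left out. With flanks of 20 kb the regions held 48 WT and 94 deletion peaks, and with 100 kb 164 and 284. With equal numbers of the strongest peaks the mutant had 92 peaks in the regions, a ratio to WT of 0.939, and the overlaps became 81.6% of WT peaks and 79.3% of deletion peaks. The share of WT peaks with a deletion peak was 97.9% at 20 kb and 98.6% at a −log10 q-value above 5. Overlap of at least 50% left 39.2% of deletion peaks with a WT peak. The promoter median changed sign to 0.45 when measured by −log10 q-value, which grows with depth. The median at shared peaks changed sign to -0.0597 by pileup over library background and was 0.65 by −log10 q-value, so no direction of change at these genes holds across measures. Pairing by summits at most 100 bp apart, and the RefSeq gene start for Cho replicate 2, were chosen after seeing the data. The Nos2 promoter call was lost in WT at a −log10 q-value above 5, and in WT and the mutant with equal numbers of peaks. Tnf gained a call in Cho replicate 1 at a window of 2 kb, and Nfkb1 lost one in Cho replicate 2 at 500 bp. That Nfkb1 summit lay 507 bases downstream of the GRCm38 start, and summit distances at Nfkb1 were shifted by 428 bases between the builds. The part of this shift in the lost call was not tested. Of 55 alternative values, 41 stayed within the limits set. Depth and the scoring of peaks differ between the libraries and limit calls in each.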

Other observations

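The regions of the 10 genes also held open starts of neighbouring genes. Near Ccl2, a peak lay within 1 kb of the start of Ccl7, a related monocyte chemokine, with a promoter fold enrichment of 12.2 and 14.0 in the Cho libraries, 8.38 in WT and 11.5 in mutant cells. Beyond Il1r1, both WT and the mutant had a peak at the start of Il1rl2, the interleukin-36 receptor, and near Nos2 both had one at Lgals9, which encodes galectin-9. The start of Lta, next to Tnf, had a peak in the mutant, with a fold enrichment of 4.30, and no WT or Cho peak lay there.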
